A study of Mus musculus with 9 samples.

Results

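HOXA13 and HOXD13, together HOX13, are homeodomain transcription factors of the posterior Hox genes that act in the distal limb bud, where hand and foot form. Genes that control development are often surrounded by long stretches of DNA holding many enhancers, called regulatory landscapes, and binding of 1 factor can then recur many times around a single gene. The data described here are the 30 stretches of 1 Mb with the highest density of HOX13 peaks in the mouse autosomes. They were selected on the peak numbers themselves. The mm10 autosomes were cut into 2473 fixed windows of 1 Mb, and the distinct peak intervals of each wild type (wt) list were assigned to windows by their midpoints and divided by the list's autosomal total. The mean over the 6 wt lists ranked the windows. The 3 windows between 73 and 76 Mb of chromosome 2, which hold the HoxD locus edited in the study, were left out, so that 30 windows were kept of 2470. Their high density is therefore a description and not a result, and no test is given on it.

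Peaks came from CUT&RUN, in which an antibody directs a nuclease to a bound protein and the released DNA is sequenced. All 9 libraries were from distal forelimb cells of mouse embryos on the B6CBAF1 background, without treatment. At E12.5 there were 3 wt libraries for HOXA13, 3 wt libraries for HOXD13 and 2 HOXA13 libraries of the line II1TDOM 542, called 542 below. A single 542 library for HOXD13 is labelled E11.5. The 542 line carries an additional copy of the distal limb enhancer II1 with a reporter in the landscape on the other side of the Hoxd genes (T-DOM). Per the study's methods, each library came from its own pool of tissue from several embryos, so that the spread between libraries is one between pools.

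The wt lists held between 23599 and 85559 autosomal intervals, the lowest being HOXD13 replicate 1, and the 542 lists between 73021 and 115755. Replicate 3 of both antibodies stood apart. Across all windows outside the excluded stretch the Spearman correlation of interval numbers was 0.88 between HOXA13 replicate 3 and HOXD13 replicate 3, and 0.55 between HOXA13 replicate 3 and HOXD13 replicate 2. The label of HOXD13 replicate 3 calls it a reanalysis of an earlier sample. Peak lists contain no expression values, so the tissue label could not be checked against marker genes.

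Sequences under the most significant peaks of the leading windows are shown first, as examples. They do not stand for the other intervals of these windows. In each of the first 10 windows, the interval called in all 6 wt lists with the highest −log10 p rank was taken. All 10 of these intervals were also called in 3 of the 3 542 lists. Printed are 101 bases of mm10 around the median summit, plus strand, for windows 1, 2, 3, 5, 6 and 7, picked after their sequences were seen. Capitals mark the HOX13 consensus, searched on both strands as CCNATAAA, CTNATAAA, CCNGTAAA and CTNGTAAA. The 6 sequences were:
Jazf1 intron, chr6:52987967-52988067: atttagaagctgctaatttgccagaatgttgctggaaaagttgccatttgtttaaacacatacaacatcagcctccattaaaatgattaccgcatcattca
upstream of Nfe2l3, chr6:51178244-51178344: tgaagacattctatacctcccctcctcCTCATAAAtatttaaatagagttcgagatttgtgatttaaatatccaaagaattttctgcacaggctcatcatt
Msrb3 intron, chr10:120872401-120872501: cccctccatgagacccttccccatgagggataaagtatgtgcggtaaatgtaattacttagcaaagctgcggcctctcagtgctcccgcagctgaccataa
Per1 start, chr11:69094971-69095071: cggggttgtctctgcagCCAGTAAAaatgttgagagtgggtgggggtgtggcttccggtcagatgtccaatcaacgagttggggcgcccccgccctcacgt
Msi2 intron, chr11:88455259-88455359: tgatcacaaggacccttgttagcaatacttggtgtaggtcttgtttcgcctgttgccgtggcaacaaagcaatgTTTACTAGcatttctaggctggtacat
Mecom intron, chr3:30228408-30228508: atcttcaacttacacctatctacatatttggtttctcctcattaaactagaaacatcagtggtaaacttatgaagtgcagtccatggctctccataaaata

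Of all 10 intervals 4 had a consensus form within these bases, 3 of them among the sequences printed. CTCATAAA lay 254376 bp from the start of Nfe2l3 in an intergenic interval, CCAGTAAA lay in an interval whose summit was 196 bp from the start of Per1, a circadian clock gene, and TTTACTAG, which matches CTNGTAAA on the minus strand, lay within an intron of Msi2. Of all wt intervals outside the 30 windows, between 14.7 and 22.0% per library had a form within the same 101 bases. Inside the windows the share was 15.4 to 24.1%. No match says only that these letters were not in the sequence shown. The fold enrichments of the 6 intervals over local background lay between 4.44 and 19.4 in the wt lists, the highest being that of the Msi2 interval in HOXA13 replicate 1.

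The 30 windows lay on 15 chromosomes, with 5 on chromosome 6 and 4 on chromosome 10. Together they held between 3.11 and 4.05% of the intervals of each wt list. As examples, HOXA13 replicate 1 had 2658 of 85559 intervals in the windows (3.11%, exact 95% interval 2.99 to 3.23%), and HOXD13 replicate 1 had 956 of 23599 (4.05%, 3.80 to 4.31%). These intervals cover counting error only. The density was 2.62 to 3.45 times that of the remaining windows. Mean shares are given below as intervals per 10000 autosomal intervals of a list. They ran from 17.6 in the first window to 10.2 in the last, against a median of 3.92 over all 2470 windows. The limit was narrow, since rank 26, around Wnt5a, had a mean share of 10.3 and rank 30, around Ebf2, had 10.21. Just outside stood rank 31, led by Rbm20, at 10.19, rank 32, which contains Lmx1b, at 10.15, rank 33 at 10.13 and ranks 34, with Zic5 and Zic2, and 35 at 10.01.

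**Figure D1:**
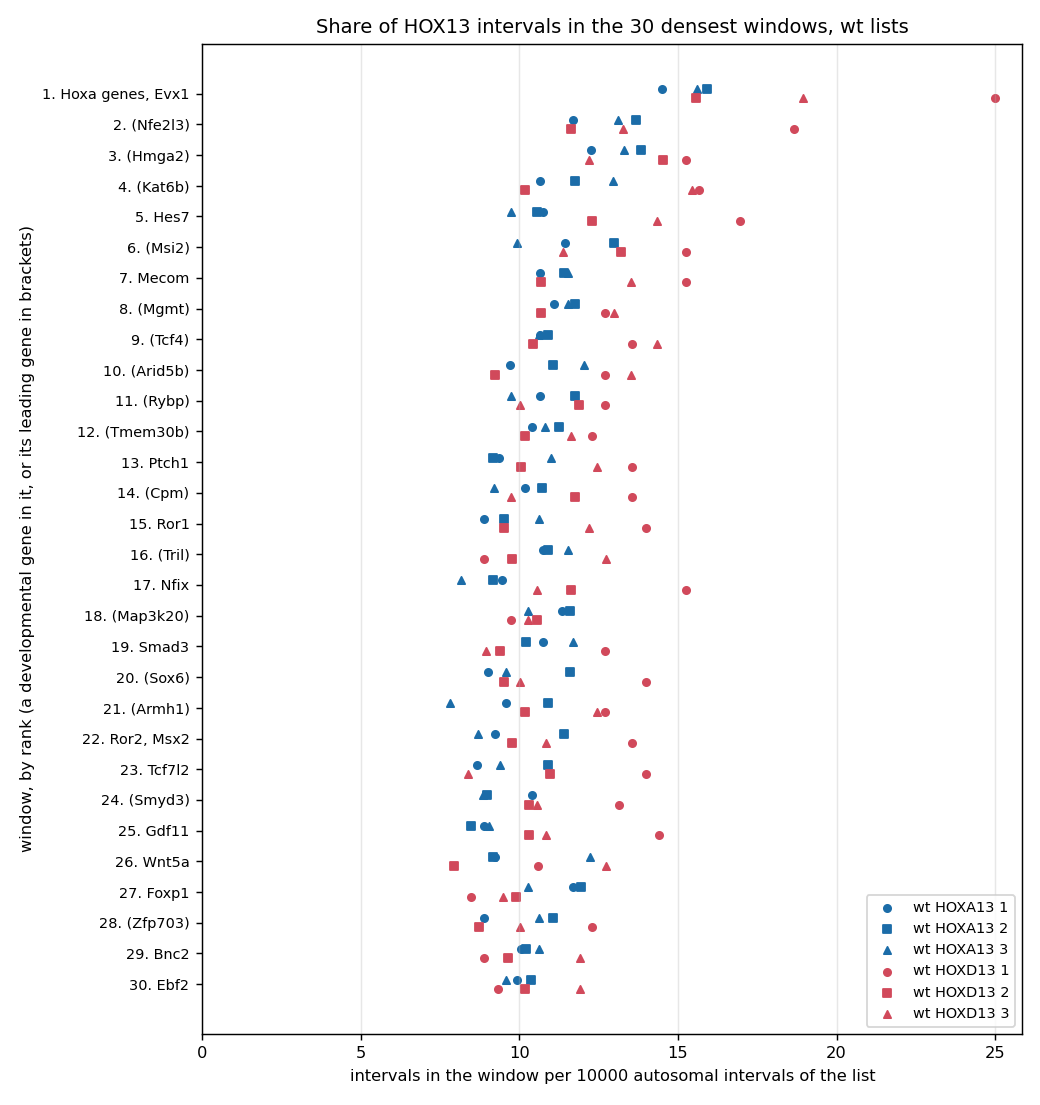
Intervals per 10000 autosomal intervals of a list (x axis, linear from 0) in each of the 30 windows (y axis, ordered by the mean over 6 wt lists); each point is 1 library, blue for HOXA13 and red for HOXD13, with the symbol giving the replicate. The Hoxa window lies to the right of the others, and HOXD13 replicate 1 is the highest of the 6 libraries in 21 windows.

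The densest window was chr6:52000001-53000000, which holds the Hoxa genes and Evx1, the homeobox gene next to Hoxa13. Its shares were 14.5, 15.9 and 15.6 in the HOXA13 libraries and 25.0, 15.6 and 18.9 in the HOXD13 libraries. It was the top window of all 3 542 lists as well, with 13.9 and 14.9 for HOXA13 and 13.3 for HOXD13. The single coding start nearest to most intervals was that of Tax1bp1, an autophagy receptor gene, which accounted for 21.3% of the window's intervals, while those of the cluster itself were divided among closely spaced Hoxa starts. Hibadh, an enzyme of valine breakdown, followed with a mean share of 3.31, Evx1 with 2.78 and the zinc finger gene Jazf1 with 2.32. These genes lie beyond Hoxa13, on the side of the cluster known for digit enhancers. Within 1000 bp of the start, an interval was called in all 6 wt lists for Hoxa3, Hoxa4, Hoxa7 and Hoxa11 and in 0 of 6 for Hoxa13, Evx1, Hoxa2 and Hoxa6. The start is the upstream end of the gene record, 1 per gene. For Hoxa3 it lies at 52213336, beyond Hoxa4, Hoxa5 and Hoxa6 and short of the Hoxa7 record at 52214491. The Hoxa3 count covers that position only.

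Both neighbours of this window were members. The window chr6:51000001-52000000, on the side of the cluster away from Evx1, ranked second with shares of 11.7, 13.7 and 13.1 for HOXA13 and 18.6, 11.6 and 13.3 for HOXD13. No developmental gene of the lists starts there. Its intervals lay nearest to Nfe2l3, a basic leucine zipper factor, in 34.8% of cases. On the other side, chr6:53000001-54000000, led by the Toll-like receptor partner gene Tril, ranked 16 with a mean share of 10.8. In 50 kb bins across the 3 windows, the highest mean was 2.15 ± 1.30 intervals per 10000 (SD, n = 6), in the bin from Hoxa13 to 50 kb away from Evx1. This bin lies within the Hoxa cluster and contains the starts of Hoxa7, Hoxa9, Hoxa10, Hoxa11 and Hoxa13 and the upstream end of the Hoxa3 record. It had 1.17, 1.56 and 1.59 in the HOXA13 libraries and 4.66, 1.45 and 2.44 in the HOXD13 libraries. In each HOXA13 library another bin had as many intervals.

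**Figure D2:**
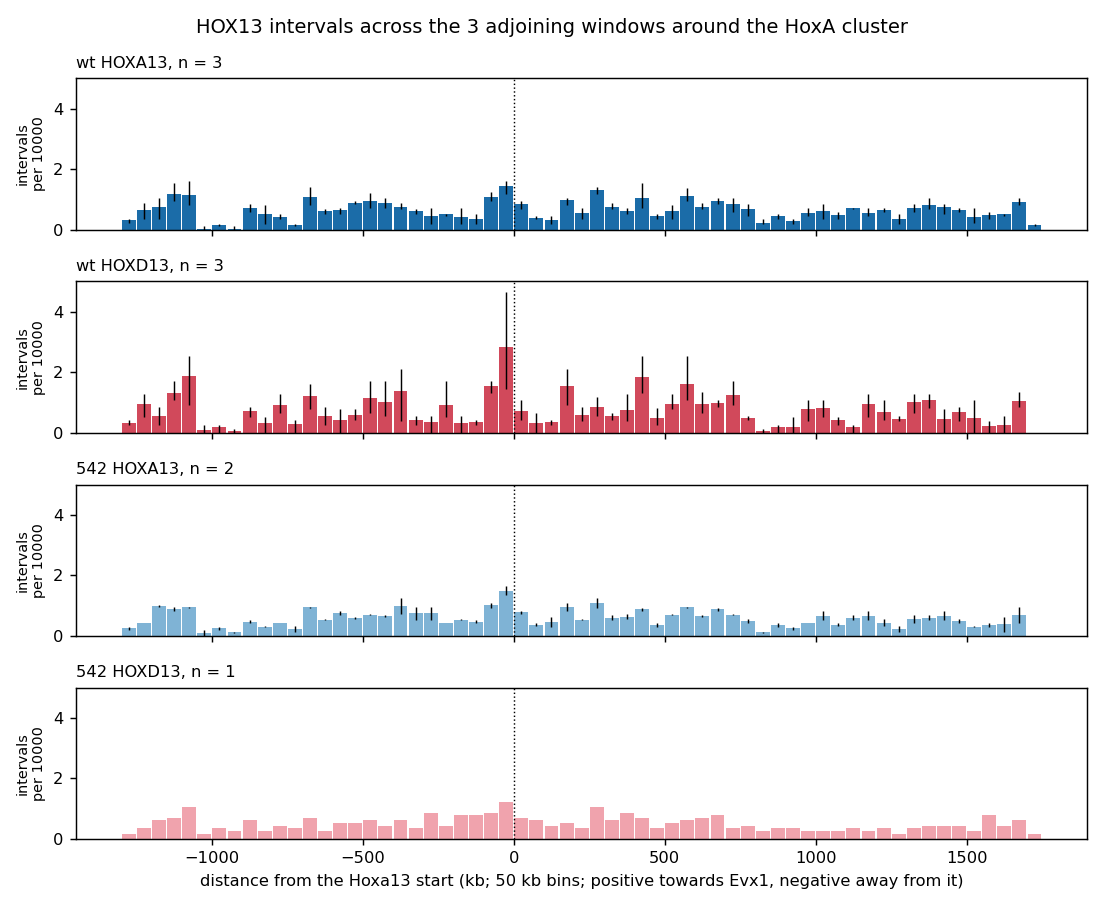
Intervals per 10000 autosomal intervals in 50 kb bins (y axis) against distance from the Hoxa13 start in kb (x axis), over 3 adjoining windows; bars are means over the libraries of a group, black lines run from the lowest to the highest library, and the 542 HOXD13 panel is 1 library. The bin next to Hoxa13 on the side away from Evx1 has the highest mean in the wt lists, 2.15 over the 6 libraries, and intervals recur on both sides over more than 1 Mb. HOXD13 replicate 1 is the highest library in that bin, and in each HOXA13 library another bin had as many intervals.

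Windows 3 to 10 showed how varied the setting of dense HOX13 binding was. Window 3, chr10:120000001-121000000, had shares of 12.3, 13.8 and 13.3 for HOXA13 and 15.3, 14.5 and 12.2 for HOXD13. Hmga2, a chromatin protein that promotes growth of embryonic mesenchyme, was the nearest start to 38.3% of its intervals, and Msrb3, a methionine sulfoxide reductase gene, followed. Window 4, chr14:21000001-22000000, had 10.6, 11.8 and 12.9 against 15.7, 10.2 and 15.4, and its leading gene was the histone acetyltransferase Kat6b (37.9%). In both windows the antibody groups overlapped.

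Window 5, chr11:69000001-70000000, differed in kind, since 65 coding genes start in it. It contains Hes7, an oscillating Notch target of the somites, and the histone demethylase gene Kdm6b led with only 6.9% of the intervals. Its shares were 10.7, 10.6 and 9.75 for HOXA13 and 16.9, 12.3 and 14.3 for HOXD13, so that the groups did not overlap. Window 6, chr11:88000001-89000000, had 11.45, 12.97 and 9.92 against 15.3, 13.2 and 11.4, with the RNA-binding protein gene Msi2 in the lead (34.6%). Its nearest developmental gene was Nog, the BMP antagonist that shapes digit joints, 302 kb from the edge.

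Window 7, chr3:30000001-31000000, was almost wholly assigned to the zinc finger factor gene Mecom, the nearest start to 81.0% of the intervals. Its shares were 10.6, 11.4 and 11.52 for HOXA13 and 15.3, 10.7 and 13.5 for HOXD13. Window 8, chr7:136000001-137000000, contains 1 coding start and had 11.1, 11.8 and 11.52 against 12.7, 10.7 and 12.99. Its leading gene was Mgmt, which repairs alkylated guanine (63.5%), and Ebf3, of the same family of transcription factors as Ebf2, lies 314 kb beyond the edge. The groups overlapped in both.

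Window 9, chr18:69000001-70000000, was led by Tcf4, a basic helix-loop-helix factor gene, with 69.8% of the intervals and shares of 10.6, 10.9 and 10.6 against 13.6, 10.4 and 14.3. Window 10, chr10:68000001-69000000, was led by the DNA-binding protein gene Arid5b (41.0%), with 9.70, 11.1 and 12.1 against 12.7, 9.24 and 13.5. In window 9 the 3 HOXA13 libraries lay within the range of the HOXD13 libraries.

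The remaining windows were described by the genes that start in them. For this, 341 developmental genes in 10 lists were used, of which 337 were found among autosomal coding genes. The Wnt list contributed 4 genes in 4 windows. These were Wnt5a, a ligand required for digit outgrowth, Ror1 and Ror2, receptors of that ligand, and Tcf7l2, a nuclear effector of canonical Wnt signalling. Wnt5a was the nearest start to 67.7% of the intervals of its window, Tcf7l2 to 65.0% and Ror2 to 37.1%. The Ror2 window also contains Msx2, a homeobox gene of the limb mesenchyme.

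Of the Hedgehog list, Ptch1, a receptor of Hedgehog ligands, started in a window that was led by another gene, Fancc, of DNA repair. For Ptch1 the intervals nearest its start numbered 14, 9 and 9 in the HOXA13 lists and 5, 13 and 7 in the HOXD13 lists. From the BMP and TGF-beta list, the signal transducer Smad3 and the ligand Gdf11 were present, and from the Notch list Hes7. The FGF list (17 genes matched) and the retinoic acid list (14) had 0 genes in the windows. Both lists are short, and 1.58% of all coding genes start in the windows.

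Of the list of limb identity and patterning genes, 6 of 97 were in 6 windows, among them Mecom, Nfix, Msx2, Bnc2 and Ebf2, all transcription factor genes. Bnc2 was the nearest start to 74.8% of its window's intervals and Ebf2 to 37.5%. Foxp1, a forkhead factor gene, led its window with 60.8%, and the adjoining window was led by Rybp, a Polycomb subunit gene, with 49.9%. The Hox list had 12 of 41 genes, all in the first window. Among contrast lists, myogenic genes had 1 of 12 (8.33%, Six4), surface epithelium genes 0 of 10 and endothelium and blood genes 1 of 9 (11.1%, Lyl1). Ribosomal protein genes had 3 of 76 (3.95%) and olfactory receptor genes 1 of 1128 (0.09%). The myogenic and the endothelium and blood lists are short, and their shares were not below the 8.31% of all developmental lists.

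In total 28 of the 337 developmental genes (8.31%) started in the windows, as did 328 of 20807 autosomal coding genes (1.58%). Outside the Hoxa window 16 developmental genes were spread over 15 windows. An interval within 1000 bp of the start was called in all 6 wt lists for 7 of the 28 genes, in 1 to 5 lists for 15 and in none for 6. The share of called starts over all coding genes is not given here, so these counts are only a description. The 6 include Mecom, the nearest start to 81.0% of its window's intervals. They also include Hoxa2 and Hoxa6, which were nearest to 0 intervals in every list. Only 1 start per gene was searched, the upstream end of its record, so other promoters of a gene were not covered.

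A window was counted as the possible landscape of a developmental gene when such a gene starts in it. This held for 16 of 30 windows (53.3%), against 268 of 2470 autosomal windows (10.9%). Of the 16, 4 were gene-rich, with at least 20 coding starts, a combination found in 36 of the 2470 windows (1.46%). A developmental gene was the leading gene in 8 of the 30 windows. A further 7 windows (23.3%, against 9.39%) had none inside but one within 500 kb of an edge. These were the windows led by Nfe2l3, Msi2, Mgmt, Rybp, Map3k20, Sox6 and Zfp703. In the Sox6 window no coding gene starts, the chondrocyte factor gene Sox6 itself starts 38.8 kb outside, and it was the nearest start to 76.4% of the intervals.

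The other 7 windows (23.3%, against 79.8%) had no developmental gene of the lists within reach and were led by Hmga2, Kat6b, Tcf4, Arid5b, Cpm, Tril and Smyd3. Tril lies in the window next to the Hoxa window, whose nearest listed gene, Evx1, is 687 kb from the edge. The count depends on which genes the lists hold, and Hmga2, Arid5b and Tcf4, which have known roles in development, were not in them. Among ranks 31 to 100, 28.6% of windows contained a developmental gene. The number of developmental windows depended on the ranking, being 9 of 30 when windows were ranked on intervals of at least 5-fold enrichment and 10 when ranked on the HOXA13 lists alone.

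The number of coding starts had a median of 6 in the 30 windows, from 0 to 65, against 5 over all windows. At most 4 starts lay in 13 windows (43.3%, against 45.7%). The GC content of the 30 windows had a median of 43.9%, against 41.7%. Only 4 windows (13.3%, against 11.4%) were gene-rich, with at least 20 starts: those containing Hes7, Nfix and Gdf11 and the window led by Armh1. After joining overlapping intervals of all wt lists, a window held a median of 124 intervals, against 56, of which 19.5 were called in all 6 lists, against 5. Of all joined intervals in the windows 15.3% were in all 6 lists, compared with 9.88% elsewhere, and 39.7% were in 1 list only, compared with 51.1%. The same 6 lists selected the windows, so these numbers of joined intervals are not independent of the selection.

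The position, sequence and size of intervals were not used in selecting windows and were compared between the windows and the rest of the autosomes within each wt library. The first measure was the share of intervals at coding promoters (within 1000 bp of a coding start). The shares inside were 9.29, 10.0 and 9.25% in the HOXA13 libraries and 14.3, 10.96 and 11.51% in the HOXD13 libraries. Elsewhere they were 14.2, 16.5 and 13.3%, and 23.7, 17.2 and 17.1%. The difference was −6.09 ± 1.84 percentage points (SD, n = 6), negative in 6 of 6 libraries, with p = 0.031 in a two-sided exact sign-flip permutation test over libraries, the smallest p that 6 libraries allow, and 0.078 after Benjamini-Hochberg adjustment over 5 tests, the summed antibody difference below included. It therefore missed 0.05 after adjustment. In the 542 lists the differences were −3.20, −3.62 and −1.62 points. The denominator of this share is the interval number that selected the windows. Coding starts per window had a median of 6 inside, against 5 over all windows. The test cannot separate a lower share from that selection, and a lower share does not mean fewer promoter intervals per window.

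The lower promoter share was not common to all windows. In the 4 gene-rich windows 42.2 ± 5.26% of intervals lay at promoters (SD, n = 6 wt libraries), and in the remaining 26 windows 6.25 ± 0.94%. In the windows with a developmental gene inside that were not gene-rich the share was 6.66 ± 1.04%, in those with one within 500 kb 5.57 ± 1.40% and in those with neither 6.26 ± 0.35%. The ranges of the last 3 kinds over the libraries overlapped. Intervals more than 50 kb from any coding start made up 56.9 to 61.1% of those in the windows and 42.2 to 52.9% elsewhere, and introns held 50.0 to 51.6% against 41.1 to 44.7%. In the Wnt5a window only 0.24% of intervals lay at a promoter, and in the Sox6 window 0%.

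The HOX13 consensus was present within 50 bp around the summit in 13.8, 12.7 and 10.5% of HOXA13 intervals in the windows and in 10.98, 9.72 and 8.86% of HOXD13 intervals. Elsewhere the shares were 12.4, 12.0 and 9.33%, and 11.6, 8.17 and 7.39%. The mean difference was 0.95 ± 0.81 percentage points, positive in 5 of 6 libraries (exact sign-flip permutation p = 0.062, adjusted p = 0.10), which did not pass the test. The exception among the wt libraries was HOXD13 replicate 1. For 542 HOXA13 the differences were 0.73 and −0.47 points and for 542 HOXD13 1.08 points. By window, the mean share of intervals with a form ran from 5.27% around Hes7 to 16.6% around Zfp703, and the Hoxa window had 16.2%. The Hes7, Gdf11 and Nfix windows had the lowest shares, 5.27, 5.49 and 5.55%. When the 4 gene-rich windows were left out, a choice made after seeing the data, the difference was 1.60 points, with an unadjusted exact p of 0.031. Outside coding promoters it was 0.58 points (exact p = 0.28), and among intervals of at least 5-fold enrichment 0.16 points (exact p = 0.81).

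The comparison of interval heights depended on the intervals used. The median rank of fold enrichment within a list differed by 0.058 ± 3.15 percentile points between the windows and elsewhere and was higher inside in 3 of 6 libraries (exact sign-flip permutation p = 1). It was lower inside in replicate 3 of both antibodies and in HOXD13 replicate 1. With the top 20000 intervals of each list it was −2.80 points inside against elsewhere (exact sign-flip permutation p = 0.031, unadjusted). The median widths inside were 513, 448 and 472.5 bp for HOXA13 and 417, 464 and 442 bp for HOXD13, against 468, 402 and 440 bp, and 392, 392 and 416 bp, elsewhere. The log2 ratio of the medians was 0.14 ± 0.06 (SD, n = 6), positive in 6 of 6 libraries (exact p = 0.031, adjusted p = 0.078). It fell to 0.05 when each list was limited to its top 20000 intervals.

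**Figure D3:**
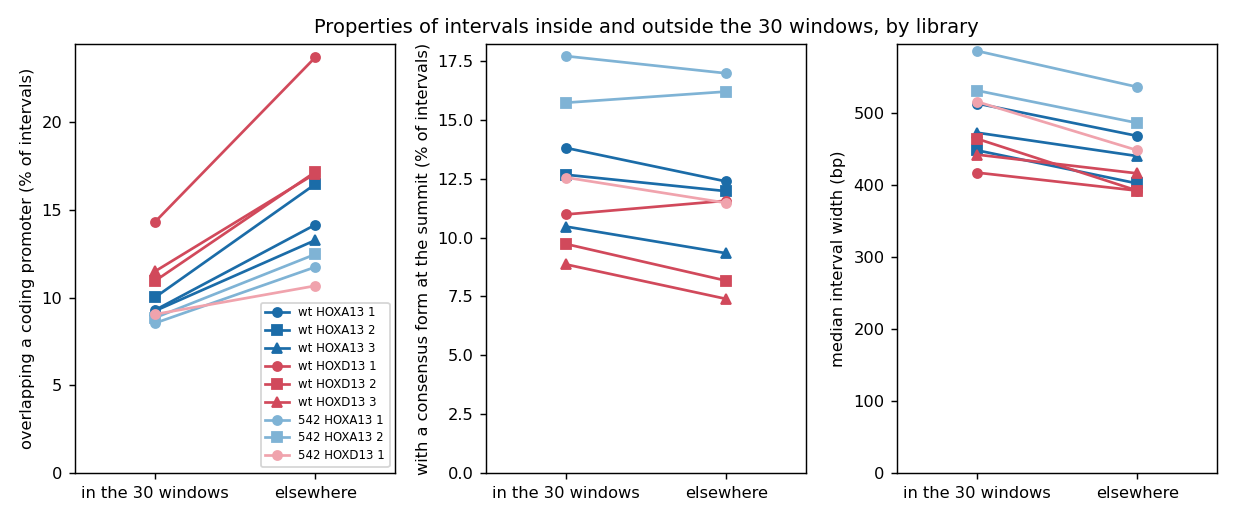
Percent of intervals overlapping a coding promoter, percent with a HOX13 consensus form within 50 bp around the summit, and median interval width in bp (y axes, from 0), in the 30 windows and elsewhere (x axis); each line is 1 library, dark blue and red for wt HOXA13 and HOXD13, light blue and pink for 542. The promoter share is lower in the windows in all 9 libraries and the width greater in all 9, while the consensus share is higher inside in 5 of the 6 wt libraries.

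The antibodies were next set side by side over the same windows. The shares are those that chose the windows, and HOXD13 replicate 1, the shortest list, was the highest of the 6 libraries in 21 of them. The summed difference is therefore given as a description. Its exact permutation test counts among the 5 tests adjusted together above, but no conclusion is drawn from it. HOXA13 libraries had 3.11, 3.33 and 3.20% of their intervals in the 30 windows and HOXD13 libraries 4.05, 3.21 and 3.58%. HOXD13 replicate 2 lay within the HOXA13 range, so that the groups overlapped. The mean log2 difference, HOXA13 minus HOXD13, was −0.16. Without HOXD13 replicate 1 the difference was −0.08, and with the top 20000 intervals of each list it was −0.02. The number of intervals per list moved with this result, and its part was not tested. With replicates 1 and 2 alone the difference was −0.16, and replicate 3 had 3.20% with HOXA13 and 3.58% with HOXD13.

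Window by window, limma was applied to log2 shares of all 1871 windows with at least 10 intervals on average. At an adjusted p under 0.05 no window was called, which is 0% in either direction, and 46 windows had an unadjusted p under 0.05. Among the 30 windows 0 were called and 4 had an unadjusted p under 0.05, those containing Hoxa genes, Hes7, Nfix and Gdf11. In all 4 the share was higher with HOXD13. The Hoxa window, at −0.35, had its highest share in HOXD13 replicate 1 (25.0), and with the top 20000 intervals of each list its difference was 0.09. The median log2 difference over the 30 windows was −0.17, against 0.02 over all windows tested, and 25 of 30 values were negative. With the top 20000 intervals of each list the median over the windows was 0.02 and 19 were positive, so this direction turned with the number of intervals used.

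The strongest differences towards HOXD13 were in 3 of the 4 gene-rich windows. The Hes7 window differed by −0.48 (SE 0.14), with the values given above. The Nfix window, chr8:84000001-85000000, which was led by the immediate early gene Ier2, had 9.47, 9.17 and 8.15 for HOXA13 and 15.3, 11.6 and 10.6 for HOXD13 (−0.47, SE 0.16). The Gdf11 window, chr10:128000001-129000000, led by the sphingolipid regulator gene Ormdl2, had 8.88, 8.48 and 9.04 against 14.4, 10.3 and 10.8 (−0.42, SE 0.15). In these 3 windows every HOXD13 library lay above every HOXA13 library, whereas limma's adjusted p was 0.995 for each. Such separation occurred in 62 of 1868 windows outside the excluded stretch (3.32%).

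These windows also had the highest share of promoter intervals, 54.8% for Hes7, 58.0% for Gdf11 and 36.5% for Nfix. Across the 30 windows the antibody difference had a Pearson correlation of −0.62 with the promoter share and −0.65 with the number of coding starts, and across 1868 windows these were −0.40 and −0.44. All points share the same 6 libraries, so these are descriptions. The relation is thus also seen outside the 30 windows, and the promoter share of the HOXD13 lists was higher than that of the HOXA13 lists in the rest of the autosomes, with means of 19.3 and 14.6%. With the top 20000 intervals limma called 7 of 843 windows, all higher with HOXD13 (0.83%), and the Hes7 window was 1 of them (log2 difference −0.65, adjusted p = 0.031). Under that setting the Nfix window had −0.62 (adjusted p = 0.064) and the Gdf11 window −0.52 (adjusted p = 0.091). The Hes7, Nfix and Gdf11 windows thus kept their direction. The remaining gene-rich window, led by Armh1, had −0.06 (adjusted p = 0.92), against −0.33 with all intervals.

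Towards HOXA13 the largest difference was that of the Foxp1 window, chr6:99000001-100000000. Its shares were 11.7, 11.9 and 10.3 for HOXA13 and 8.47, 9.90 and 9.47 for HOXD13 (log2 difference 0.27, SE 0.13, limma adjusted p = 0.995). It was the 1 window of the 30 in which all HOXA13 libraries exceeded all HOXD13 libraries, a separation seen in 106 of 1868 windows (5.67%). Its HOXD13 mean, 9.28, lay under the 10.21 of the last window kept and its HOXA13 mean, 11.3, above it. This separation too is not independent of the selection. With the top 20000 intervals the Foxp1 window had 0.03, and the highest value was that of the Smyd3 window, 0.35, which was −0.27 with all intervals. The next were the Map3k20 window, chr2:72000001-73000000, which adjoins the excluded HoxD stretch, at 0.11 (SE 0.12), and the Tril window at 0.09 (SE 0.15). Map3k20 encodes a stress-activated kinase, and its window had 11.3, 11.6 and 10.3 against 9.75, 10.6 and 10.3, so that the groups overlapped. The Tril window had 10.8, 10.9 and 11.52 against 8.90, 9.77 and 12.7.

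**Figure D4:**
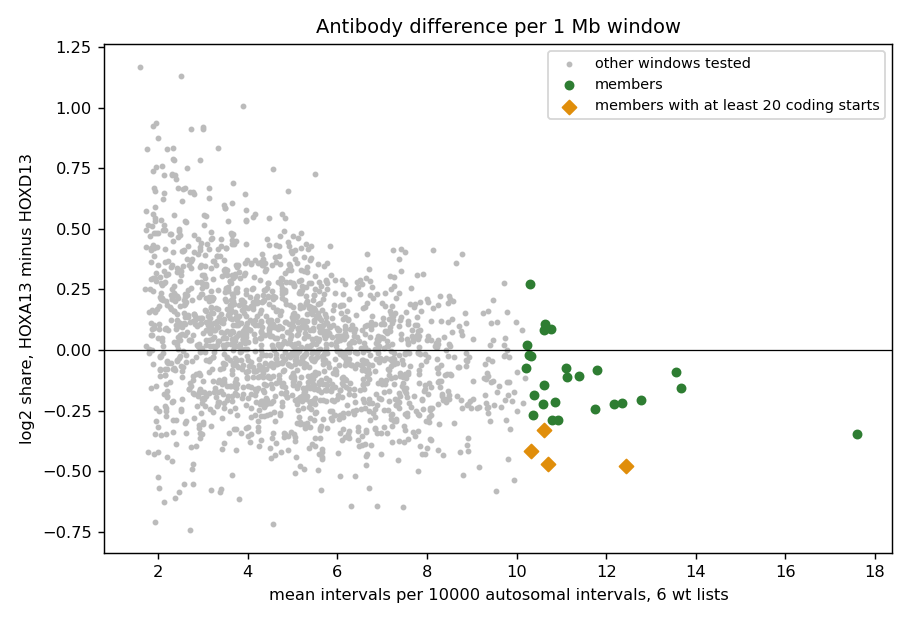
Log2 share with HOXA13 minus log2 share with HOXD13 (y axis) against mean intervals per 10000 over the 6 wt lists (x axis), for every 1 Mb window tested; green points are the 30 windows with under 20 coding starts, orange diamonds those with at least 20, grey points other windows. The 4 gene-rich windows lie at or below −0.33, and the highest of the 30 windows is that of Foxp1, at 0.27.

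The 542 lists were not used to select the windows and give the same measure in other libraries. Windows of chromosome 2 from 75 Mb on were left out here, because the 542 reads were mapped on the mutant genome, which left 2363 windows and all 30 members. The density in the windows was 2.41 and 2.57 times that elsewhere for 542 HOXA13 and 2.15 times for 542 HOXD13. Since the wt values were those that chose the windows, the lower folds in 542 were not compared by a test. Of the 30 windows, 15 and 19 were in the top 30 of the 542 HOXA13 lists and 13 in that of the 542 HOXD13 list, and 26, 26 and 21 were in the top 100. In all 3 lists together, 11 windows were in the top 30 and 20 in the top 100.

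The windows of Hoxa, Nfe2l3, Hmga2 and Kat6b were within the first 8 of each 542 list. The Mecom, Tcf4, Map3k20, Smad3, Tcf7l2, Wnt5a and Foxp1 windows were also among the first 30 of each. The lowest were gene-rich windows, with the Gdf11 window at ranks 240, 145 and 509 and the Nfix window at 190, 219 and 410. The Arid5b window ranked 56 and 62 with HOXA13 and 348 with HOXD13. The HOXD13 list is a single library with a different stage in its label, so that antibody, stage and library cannot be told apart in its lower ranks.

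**Figure D5:**
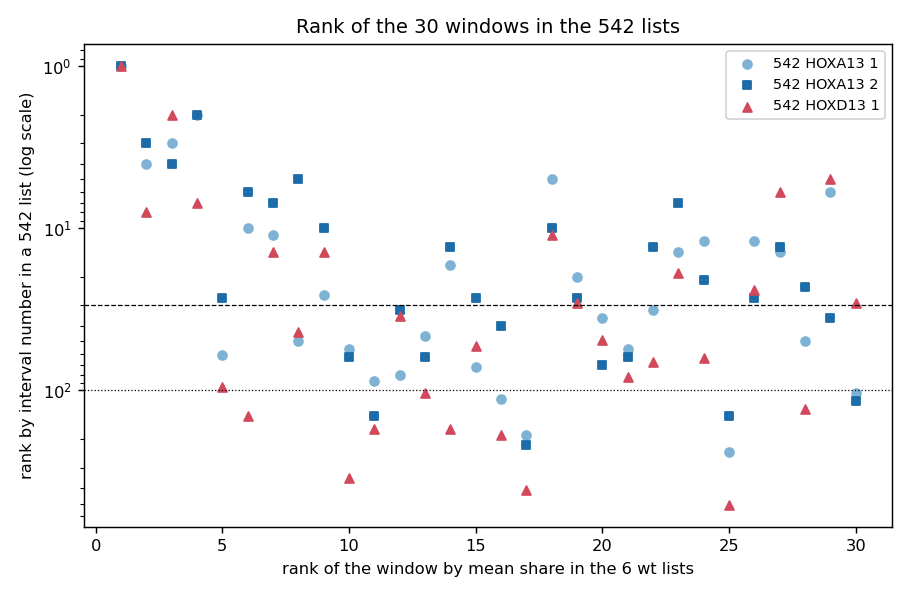
Rank of each of the 30 windows in 3 542 lists (y axis, log scale, rank 1 at the top) against its rank by mean share in the 6 wt lists (x axis); dark and light blue points are the 2 HOXA13 lists and red triangles the HOXD13 list, and the dashed and dotted lines mark ranks 30 and 100. The Hoxa window is first in all 3 lists, and the lowest point is the Gdf11 window at rank 509 in the HOXD13 list.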

How the data were processed

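Peak lists of CUT&RUN with antibodies against HOXA13 and HOXD13, 1 list per library, were analysed as deposited. Per the study's methods, reads were trimmed with cutadapt, mapped with Bowtie (wt on mm10, 542 on the mutant genome), filtered at mapping quality 30, and peaks were called with MACS2 per library without a control. Fold enrichment, as deposited, is the ratio between the pileup at a summit and its local background. The deposited −log10 p-value measures that excess, its −log10 q-value is the adjusted form, and the deposited score is the latter as a whole number. Duplicated fragments and pileups in poorly mappable sequence can therefore raise peak numbers.

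Summit rows of 1 peak (equal coordinates) were counted as a single interval, and the summit of highest −log10 p was its main summit. Numbers of intervals per window were computed here, and limma (version 3.58.1, R 4.3.3) with trend was fitted to log2((intervals + 0.5) / autosomal intervals × 10000), tested on simulated data beforehand. Single values per library were tested by exact permutation. Genes were those of GENCODE M21 on GRCm38, the assembly of mm10, and sequences were read from GRCm38 with samtools 1.23.1. Each gene had 1 start, the upstream end of its record. Chromosome X was not ranked. Python 3.11.15, numpy 2.4.6, pandas 2.3.3, scipy 1.17.1 and pysam 0.24.0 were used.

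The windows, gene lists and tests were chosen with earlier results of these data known. Windows were named in order of mean share, each with its developmental genes and its leading gene, the coding gene nearest to most intervals; values per library were given for the first 10 and for the 3 with the greatest antibody difference in each direction. Other genes named were chosen after their values were seen. Alternatives covered the interval and height thresholds, the promoter and consensus reach, the pseudocount and filter, window position, left-out libraries and a replicate block. Some genes of the windows are not reported here.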

Additional observations from a re-analysis of the deposited data

How the results depend on the processing

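The set of windows depended on how intervals were counted. Of the 30 windows, 12 were kept with intervals of at least 5-fold enrichment, 19 with the top 20000 intervals of each list, 19 with every summit counted, 18 with covered bases and 12 when the grid was shifted by 500 kb; leaving out 1 library kept 25 to 28. Windows with a developmental gene numbered 9 at 5-fold enrichment and 10 with HOXA13 lists alone, and 14 to 15 when 1 library was left out. The antibody difference in the summed share kept its sign under all alternatives run, from −0.24 to −0.08 when 1 library was left out. Called windows rose from 0 to 7 of 843, 1 of them among the 30, with the top 20000 intervals and to 1 of 257 at 5-fold enrichment, and stayed at 0 in every fit without 1 library. The promoter difference was −6.50 to −5.43 points without 1 library, where p cannot fall below 0.0625, and −6.73 with replicates 1 and 2 alone (added after seeing the data). It was −10.7 without the gene-rich windows, which were left out of the 30 but not elsewhere. The width ratio was 0.049 with the top 20000 intervals (exact p = 0.062), 0.114 to 0.145 without 1 library and 0.155 with replicates 1 and 2. The consensus difference stayed positive under all alternatives run, at 0.16 with 5-fold enrichment, 0.30 with 2 forms only, 0.58 outside coding promoters and 2.02 within 200 bp. It was 1.60 without the gene-rich windows, again left out of the 30 only. The fold enrichment difference reversed to −2.80 with the top 20000 intervals (exact p = 0.031), −0.059 at 5-fold enrichment and −0.090 without the gene-rich windows, and ranged from −0.517 to 0.875 without 1 library. The causes were not tested.

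Same-numbered libraries paired clearly only for replicate 3. Their deviations from the group means correlated by −0.09 for replicate 1, 0.56 for replicate 2 and 0.75 for replicate 3. HOXA13 replicate 1 correlated best with HOXD13 replicate 2 (0.69). With the replicate block the promoter difference of −6.09 and the width ratio of 0.135 both had an exact p = 0.25, the smallest that 3 pairs allow, and limma called 0 windows, with 181 at an unadjusted p under 0.05. With 23599 to 85559 intervals per list, a window of the shortest list rested on few intervals, which limits differences that could be detected in single windows.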

Other observations

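The 3 windows left out around the HoxD locus had mean shares of 10.7, 15.4 and 16.2 per 10000 intervals and would have ranked 19, 3 and 2. On chromosome X, which was not ranked, the highest window reached 6.13, below the 10.21 of the last window kept. Of ranks 31 to 36, just outside the limit, rank 36 contains Tbx3 and Tbx5, T-box genes of limb patterning, at 10.00.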
